A study of Mus musculus with 8 samples.

Results

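The seminal vesicle secretory proteins, encoded by the Svs genes, are the main products of the seminal vesicle, the gland that supplies most of the fluid of mouse semen. The genes considered were Svs1, Svs2, Svs3a, Svs4, Svs5 and Svs6, and their members on the array were all probe sets, that is, groups of short oligonucleotides that together report 1 transcript, which the platform annotation gives to any of the 6 genes. By this annotation 12 of 45037 probe sets other than controls belong to 5 of the 6 genes: 2 to Svs2, 3 to Svs3a, 1 to Svs4, 5 to Svs5 and 1 to Svs6, while Svs1 was not analysed here because no probe set carries its name. Of the 3 Svs3a probe sets, 1417992_a_at and 1436782_at are shared with Svs3b, and the genes cannot be told apart there. The family was chosen by the measured signals of Svs2 and Svs5, which were seen to be high on 2 of the 8 arrays, Dasatinib 1 and DMSO 5. The pattern over the arrays is therefore given as a description, and no test of it is read as a result.

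RNA came from granulocytic myeloid-derived suppressor cells (Gr-MDSCs), immature neutrophil-like cells that restrain T cells, and each of the 8 samples was hybridized to 1 array. Gr-MDSCs were exposed ex vivo for 6 h to 0.1 uM Dactolisib, an inhibitor of PI3K and mTOR (2 samples), to 0.1 uM Dasatinib, a tyrosine kinase inhibitor (2 samples), or to DMSO, the vehicle (4 samples, numbered 2 to 5). All mice, aged 12-16 weeks, were of the CPPSML model, which carries PB-Cre+, the floxed tumor suppressors Smad4L/L, PtenL/L and p53L/L, and the reporters LSL-LucL/+ and mTmGL/+. Here Cre is driven by the probasin promoter in prostate epithelium, males were castrated when the tumor measured 150 mm3 and then fed the androgen receptor antagonist enzalutamide for 4 weeks, and the CD11b+ Ly6G+ Ly6C low cells of the digested prostate tumors were collected by magnetic sorting. No group of intact or untreated mice was measured, and no sample of prostate or seminal vesicle tissue.

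The seminal vesicles grow from the Wolffian duct and lie against the anterior prostate, which has another embryonic origin, the urogenital sinus. Svs genes are transcribed at high levels in the secretory epithelium of the gland, and in the adult their transcription depends on androgen. Svs2 and the Svs3 proteins are clot-forming relatives of the semenogelins, which the prostate enzyme transglutaminase Tgm4 cross-links into the copulatory plug. Svs4, Svs5 and Svs6 are small secreted proteins from genes of the same cluster, which evolved from the same kind of precursor. Svs1, by contrast, is related to copper amine oxidases and lies on another chromosome. None of these genes is known as a product of granulocytes.

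To show what the measured genes share upstream, the 250 bases before the RefSeq start of transcription are printed here for Svs2, Svs3a, Svs4, Svs5 and Svs6, all on chromosome 2 (RefSeq, build GRCm38.p6), 5′ to 3′ on the strand of the gene. Capitals mark the letters GATAAG and ATATAAA, and the windows are chr2:164238342-164238591 (minus strand) for Svs2, chr2:164289017-164289266 (plus) for Svs3a, chr2:164278308-164278557 (minus) for Svs4, chr2:164332515-164332764 (plus) for Svs5 and chr2:164316501-164316750 (plus) for Svs6.
Svs2: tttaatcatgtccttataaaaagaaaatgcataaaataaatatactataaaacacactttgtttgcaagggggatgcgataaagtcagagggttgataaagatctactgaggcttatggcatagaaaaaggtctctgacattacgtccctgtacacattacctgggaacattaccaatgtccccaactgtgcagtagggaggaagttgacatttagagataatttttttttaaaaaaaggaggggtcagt
Svs3a: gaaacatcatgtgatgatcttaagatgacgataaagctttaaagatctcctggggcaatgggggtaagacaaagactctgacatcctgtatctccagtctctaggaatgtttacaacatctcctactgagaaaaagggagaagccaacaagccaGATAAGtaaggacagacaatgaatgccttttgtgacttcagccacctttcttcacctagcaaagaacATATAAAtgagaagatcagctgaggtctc
Svs4: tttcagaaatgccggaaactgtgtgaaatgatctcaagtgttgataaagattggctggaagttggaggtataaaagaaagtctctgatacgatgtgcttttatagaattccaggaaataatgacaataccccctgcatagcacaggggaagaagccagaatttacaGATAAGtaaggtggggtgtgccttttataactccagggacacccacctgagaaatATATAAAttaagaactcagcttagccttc
Svs5: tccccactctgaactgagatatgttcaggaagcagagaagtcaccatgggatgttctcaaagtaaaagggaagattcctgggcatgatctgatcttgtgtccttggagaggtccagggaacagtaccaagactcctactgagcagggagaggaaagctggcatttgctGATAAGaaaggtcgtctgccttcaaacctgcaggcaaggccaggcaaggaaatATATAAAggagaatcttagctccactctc
Svs6: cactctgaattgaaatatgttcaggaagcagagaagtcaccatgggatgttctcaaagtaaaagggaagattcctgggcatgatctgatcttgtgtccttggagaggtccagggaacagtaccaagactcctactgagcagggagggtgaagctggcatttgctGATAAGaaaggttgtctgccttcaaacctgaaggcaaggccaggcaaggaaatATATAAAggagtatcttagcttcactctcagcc

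The windows of Svs5 and Svs6 are near copies, with 237 of 246 aligned bases identical (96.3%), and so are those of Svs3a and Svs3b, with 244 of 250 (97.6%). All other pairs among Svs2, Svs3a, Svs3b, Svs4, Svs5 and Svs6 had 64.8 to 71.7% identical bases over the parts that could be aligned. ATATAAA, the letters of a TATA box, began 29 bases before the start in Svs3a, Svs3b, Svs4 and Svs5 and 33 before it in Svs6. GATAAG, the letters bound by GATA factors, began between 82 and 96 bases before the start in the same 5 genes. Neither was found in the windows of Svs2 and Svs1, on either strand, and among the first windows of 27025 genes 4.3% held ATATAAA and 6.6% GATAAG. These 2 motifs do not overlap each other. The full palindrome of the androgen response element, AGAACA and TGTTCT with 3 bases between them, was in none of the 7 windows and in 1 of all 27025, while AGAACA alone was in Svs1, Svs3a, Svs3b, Svs5 and Svs6 and in 16.2% of all, and in Svs3a and Svs3b its last base is also the first base of ATATAAA. These are matches of letters only.

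Of the 8 arrays 6 carried little signal of any Svs gene, and Dasatinib 1 and DMSO 5 carried much. Signals are log2 values as deposited, so that a difference of 1 is a doubling, and array medians lay between 4.82 and 4.87. On the 2 Dactolisib arrays, Dasatinib 2, DMSO 2, DMSO 3 and DMSO 4, all 12 probe sets lay below the middle of their array, at most at its 42.1st percentile, and each varied over these 6 arrays by 0.20 to 0.69. DMSO 5 exceeded the highest of these 6 by more than 1 in 11 of 12 probe sets, and Dasatinib 1 did so in 8 of 12.

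**Figure D1:**
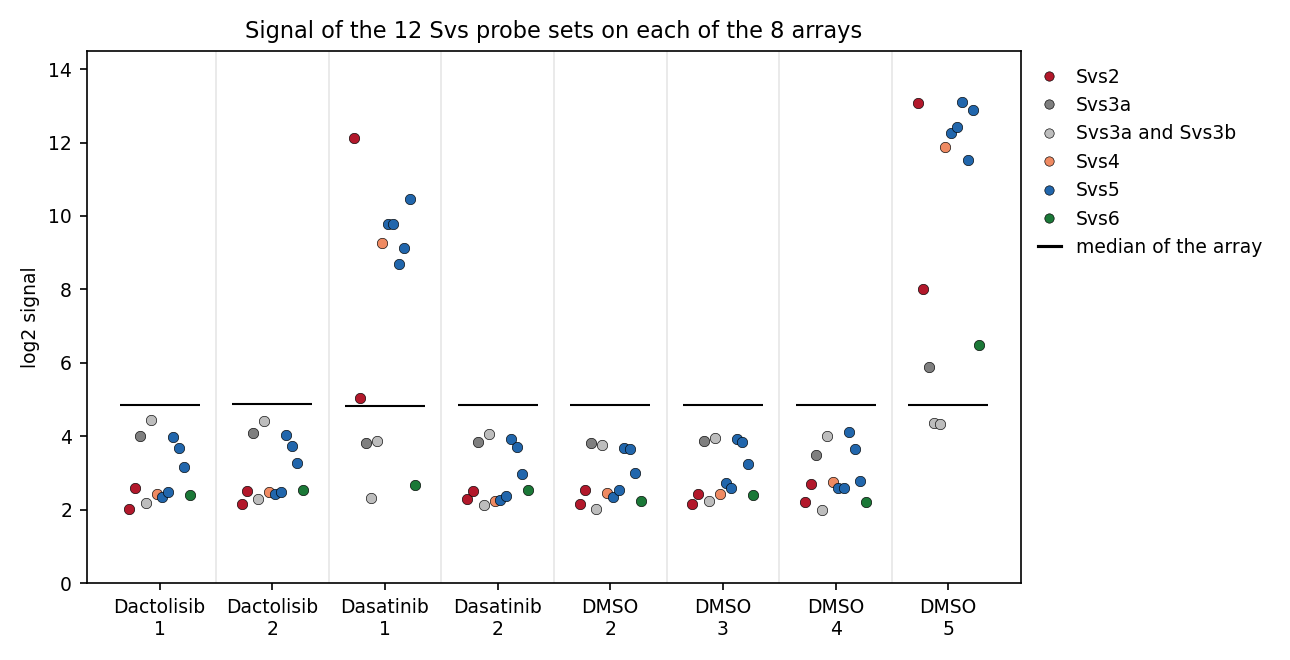
Log2 signal (vertical axis) of each of the 12 Svs probe sets on each of the 8 arrays (horizontal axis), 1 point per probe set, with the array's median over all probe sets as a bar. Points of Svs2, Svs4 and Svs5 stand above the bar on Dasatinib 1 and DMSO 5 only, Svs6 and the probe set of Svs3a alone on DMSO 5 only, and those shared by Svs3a and Svs3b on none.

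Svs2, the major protein of the copulatory plug, had the widest span of the family. Its probe set 1422427_a_at gave 2.02 and 2.16 with Dactolisib, 12.12 and 2.29 with Dasatinib, and 2.16, 2.15, 2.20 and 13.09 with DMSO, from DMSO 2 to DMSO 5. Thus Dasatinib 1 stood 9.83 and DMSO 5 10.80 above the highest of the other 6, at the 99.5th and the 99.9th percentile of their arrays. The second Svs2 probe set, 1456188_at, gave 2.58 and 2.51 with Dactolisib, 5.03 and 2.51 with Dasatinib, and 2.54, 2.42, 2.71 and 8.02 with DMSO. It too was highest on DMSO 5 and next on Dasatinib 1, but its gap between DMSO 5 and Dasatinib 1 was 2.99, against 0.97 on the first probe set. The size of that gap for Svs2 therefore depends on the probe set read.

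Svs4, whose rat counterpart is a small basic protein that was studied for its effects on inflammation and sperm, followed the same pattern on its only probe set. Its signals were 2.42 and 2.49 with Dactolisib, 9.26 and 2.23 with Dasatinib, and 2.45, 2.44, 2.75 and 11.87 with DMSO. Dasatinib 1 lay 6.51 and DMSO 5 9.12 above the highest of the other 6 arrays, and DMSO 5 was 2.61 above Dasatinib 1.

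Svs5 was measured by 5 probe sets, which agreed on the order of the 2 high arrays. The probe set with the highest mean, 1427220_a_at, gave 3.98 and 4.04 with Dactolisib, 8.70 and 3.92 with Dasatinib, and 3.67, 3.92, 4.11 and 13.11 with DMSO. The other 4 reached 9.13 to 10.47 on Dasatinib 1 and 11.53 to 12.89 on DMSO 5, and stayed at or below 3.85 on the other 6 arrays. DMSO 5 exceeded Dasatinib 1 by 4.41 on 1427220_a_at and by 2.40 to 2.66 on the other 4. The 4.41 was the highest difference of DMSO 5 minus Dasatinib 1 among all 45037 probe sets. Of the 5 Svs5 probe sets 3, among them 1419347_x_at, have names ending in x_at, which Affymetrix gives to probe sets that may also bind other transcripts.

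Svs6, the near copy of Svs5 in its promoter window, was high on DMSO 5 alone. It gave 2.40 and 2.55 with Dactolisib, 2.68 and 2.53 with Dasatinib, and 2.23, 2.39, 2.20 and 6.48 with DMSO. On Dasatinib 1, where Svs5 was between 4.59 and 7.18 above the highest of the 6 low arrays, Svs6 was 0.13 above it, which is less than its range of 0.34 over those arrays.

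Svs3a, the semenogelin-like clotting protein, behaved like Svs6. Its own probe set, 1417993_at, gave 4.02 and 4.09 with Dactolisib, 3.83 and 3.84 with Dasatinib, and 3.82, 3.88, 3.49 and 5.88 with DMSO. The shared Svs3a and Svs3b probe set 1417992_a_at also stood out on DMSO 5 only, at 4.35, while it was 2.32 on Dasatinib 1 and at most 2.29 on the 6 low arrays. The other shared probe set, 1436782_at, did not separate DMSO 5 at all: it gave 4.44 and 4.43 with Dactolisib, 3.88 and 4.07 with Dasatinib, and 3.75, 3.95, 4.00 and 4.34 with DMSO.

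The genes thus differed in how they shared the 2 high arrays, although DMSO 5 exceeded Dasatinib 1 in 12 of 12 probe sets, by 0.46 to 4.41 (median 2.46, against a median of 0.0036 over the whole table). The values that follow are for 1 probe set per gene, its own of the highest mean, against the median of the 6 low arrays. Dasatinib 1 was raised by 9.97 for Svs2, 6.82 for Svs4 and 4.75 for Svs5, but by 0.29 for Svs6 and -0.03 for Svs3a. DMSO 5 was raised by 10.94, 9.43, 9.16, 4.09 and 2.02 for the same genes in the same order. Low log2 signals depend on the summary method, so the differences were also read after adding 32 on the linear scale, and DMSO 5 was then raised by 7.91, 6.66, 7.55, 1.70 and 0.97. The order of Svs5 and Svs4 was therefore not kept, and the order of Svs2, Svs6 and Svs3a was. Order also depended on the probe set. Without the 32, the other Svs5 probe sets were raised by 7.83 to 9.92 on DMSO 5 and by 5.43 to 7.39 on Dasatinib 1, on both sides of Svs4. The second Svs2 probe set was raised by 5.50 and 2.50. Signals of different probe sets are not on 1 scale of abundance, so these are differences within each gene and not levels between genes.

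Among all probe sets, those of Svs2, Svs5 and Svs4 led the pattern for which the family was picked. The 5 with the largest excess of both arrays over the highest of the other 6 were 1 of Svs2 (9.83), 3 of Svs5 (7.18, 7.18 and 7.05) and Svs4 (6.51), and the other 2 of Svs5 came at places 8 and 10. Both arrays were above the other 6 in 10 of 12 Svs probe sets, against 16.7% of all, and by more than 2 in 8 of 12, against 0.895%. DMSO 5 exceeded the other 7 arrays by more than 1 in 10 of 12, against 0.26%, and by more than 2 in 9 of 12, against 0.0644%. Dasatinib 1 exceeded the other 7 by more than 1 in 0 of 12, against 0.0955%. As the members were picked for this pattern, nothing is read from these shares.

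The genes whose signals ran most like those of the family were looked up among 253 single-gene probe sets with a range of at least 4 over the 8 arrays. The correlations that follow are over 8 arrays which are low on 6 and high on 2, so they mostly restate the ratio of the 2 high arrays. Svs2 and Svs4 ran closest to each other (r = 0.9907), as did Svs3a and Svs6 (0.9788), while Svs2 and Svs3a were furthest apart (0.6638). The closest to Svs4 was Pate4, also known as Svs7, a small secreted protein of the seminal vesicle (r = 0.9991), with 8.35 on Dasatinib 1, 10.50 on DMSO 5 and 2.62 to 2.93 on the other 6 arrays. The closest to Svs2 were 9530002B09Rik (0.9983), with 9.46 on Dasatinib 1, 9.67 on DMSO 5 and at most 4.12 elsewhere, and Spink1 (0.9931), a protease inhibitor of the pancreas and the seminal vesicle, with 9.69, 9.21 and at most 3.95.

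The closest partners of Svs5, read on 1427220_a_at, were others than those of Svs2, read on 1422427_a_at, and rose more on DMSO 5 than on Dasatinib 1. Pate4 was among the 5 closest of both genes. Partners were looked up for 1 probe set per gene only, and they follow its gap between DMSO 5 and Dasatinib 1. That gap was 4.41 here for Svs5 but 2.40 to 2.66 on its other probe sets, and 0.97 here for Svs2 but 2.99 on its other one. Defb42, a beta-defensin (r = 0.9973), gave 6.28 on Dasatinib 1, 8.56 on DMSO 5 and at most 4.06 elsewhere. Cyp4a12a, a fatty acid hydroxylase regulated by androgen in mouse kidney (0.9932), gave 5.39, 7.58 and at most 3.67. Ces1d, a carboxylesterase (0.9895), gave 4.42, 6.76 and at most 2.88, and it was also the closest to Svs6 (0.9235) and Svs3a (0.8596). The highest correlations of Svs6 and Svs3a with a gene outside the family were lower than those of Svs2, Svs4 and Svs5.

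Svs2, Svs3b, Svs4, Svs3a, Svs6 and Svs5 follow each other in this order on chromosome 2, between genes of the whey acidic protein (WAP) family. Of the 18 nearest neighbors 17 were measured, and in 5 of them both arrays were above the other 6, against 20.8% of all genes. These were Wfdc15b, Wfdc12, Sdc4, Dbndd2 and Wfdc2. The nearest measured neighbor on the Svs2 side was Wfdc15b, a WAP-domain protein, with 5.89 on Dasatinib 1, 7.36 on DMSO 5 and 4.21 to 4.76 on the other 6 arrays. On the Svs5 side it was Slpi, an inhibitor of neutrophil elastase that neutrophils themselves make, and its signal did not separate the 2 arrays: it was 12.36 on Dasatinib 1, 13.30 on DMSO 5 and 12.82 to 13.56 on the others. Wfdc15a, next to Wfdc15b, lay at 5.41 on Dasatinib 1, 5.36 on DMSO 5 and 5.48 to 5.78 on the others. High signal was therefore not shared by the whole stretch.

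**Figure D2:**
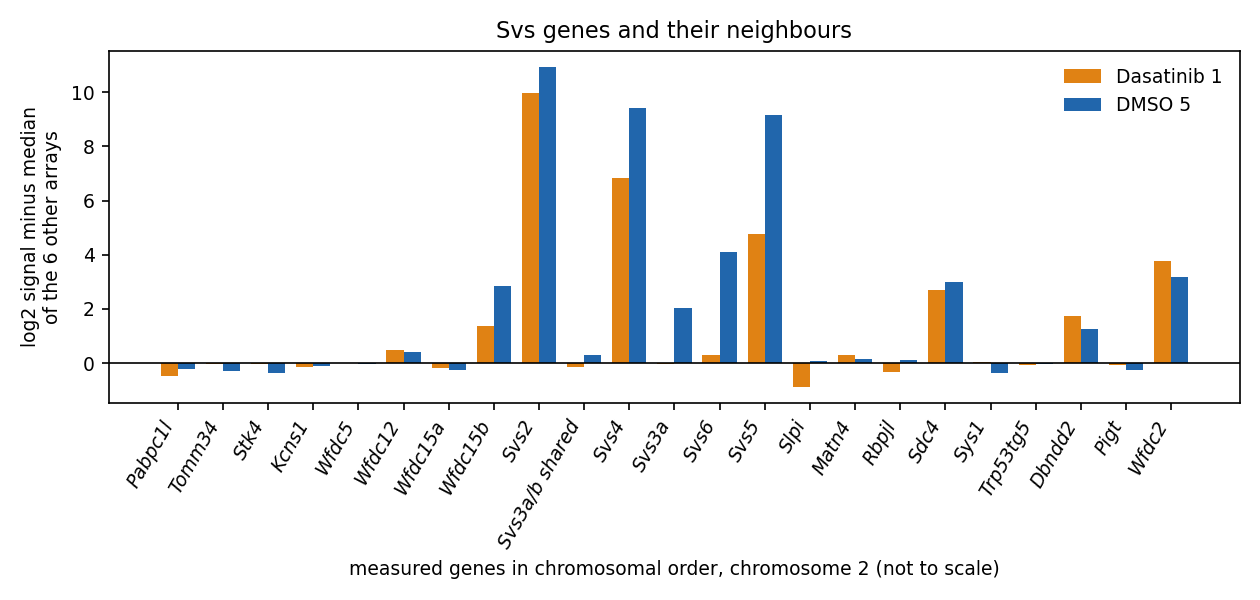
Log2 signal on Dasatinib 1 (left bars) and DMSO 5 (right bars) minus the median of the 6 other arrays (vertical axis), for the measured genes around the Svs genes in chromosomal order (horizontal axis, not to scale), 1 probe set per gene. Bars of Svs2, Svs4 and Svs5 reach between 4.75 and 10.94, Svs6 and Svs3a have a clear bar for DMSO 5 only, and Slpi beside Svs5 has none above 0.07.

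To relate the family to the tissue the cells came from, lists of other genes were read in the same way. For all 18193 genes, both arrays were above the other 6 in 20.8%, and by more than 2 in 1.15%. Of 9 measured secretions of the seminal vesicle other than Svs2, Svs3a, Svs4, Svs5 and Svs6, both arrays were above in 3 and by more than 2 in 2, which are Pate4 and Spink1. Others did not share the pattern. Pip, the prolactin-inducible protein of several exocrine glands, was high on Dasatinib 1 alone, at 7.34 against 3.20 on DMSO 5 and at most 3.31 on the others. Sval1, a relative of the seminal vesicle antigen, was raised on DMSO 5 alone, at 4.49, with 2.19 on Dasatinib 1 and at most 2.34 elsewhere, and Sva, the seminal vesicle antigen itself, lay at 2.47 to 2.73 on all 8 arrays.

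Secretions of the mouse prostate were divided. Pbsn, probasin, whose promoter drives Cre in these mice, lay at 2.44 to 2.82 on the 8 arrays, Msmb, microseminoprotein beta, at 2.62 to 3.16, and Tgm4, the enzyme that cross-links Svs2, at 3.77 to 4.09. Of 9 measured prostate secretions both arrays were above the other 6 in 5, led by Mmp7, a matrix metalloproteinase of glandular epithelia, with 11.13 on Dasatinib 1, 11.95 on DMSO 5 and 6.59 to 7.58 elsewhere. Pigr, the receptor that carries immunoglobulins across epithelia, gave 11.52, 11.51 and 6.52 to 8.39, Wfdc2, a WAP-domain protein, 12.11, 11.51 and 6.91 to 9.71, and Apof and Azgp1 gave 6.04 and 5.24 on Dasatinib 1 and 5.09 and 5.25 on DMSO 5. Hoxb13, a homeobox factor of the prostate, gave 6.18, 5.74 and 3.70 to 4.11, and it was 1 of 4 among 8 measured genes of the androgen receptor and prostate identity list with both arrays above. Of 10 measured Wolffian duct transcription factors the count was 5, among them Foxa1, a forkhead factor also present in prostate epithelium, with 10.11, 10.09 and 4.92 to 8.01. Both arrays lay below the other 6 in 3 of the 10, against 27.6% of all genes. Among the 3 were Pax8 and Lhx1, which mark the embryonic duct, at 4.71 and 4.32 on Dasatinib 1 and at 4.43 and 4.63 on DMSO 5. For Pax8 the lowest of the other 6 arrays was also at 4.71. Of 10 measured genes of the epididymis and vas deferens and of 8 sperm genes, 0 each had both arrays above the other 6.

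Epithelial transcripts as such moved with the Svs genes. Of 12 simple epithelium markers both arrays were above the other 6 in 11, by more than 2 in 7, and of 9 basal epithelium markers in 6. However, the step that the simple epithelium markers show among the low arrays was not seen for the Svs genes. Krt8, a keratin of simple epithelia, was 13.37 on Dasatinib 1 and 13.31 on DMSO 5. It was 9.88 to 10.43 on Dactolisib 1, DMSO 2 and DMSO 4, and 8.09 to 8.33 on Dactolisib 2, Dasatinib 2 and DMSO 3. Svs2 stayed between 2.02 and 2.29 on these 6 arrays. That is the 0.7th to 3.2nd percentile, so low that a step could be hidden, and nothing is read from its absence. Krt8 was also nearly equal on Dasatinib 1 and DMSO 5, where the Svs probe sets were not. Of 8 fibroblast markers 7 were higher on DMSO 5 than on Dasatinib 1, with a median difference (DMSO 5 minus Dasatinib 1) of 0.89. Among them was Bgn, the matrix proteoglycan biglycan, with 7.28 on Dasatinib 1 and 8.09 on DMSO 5, while Dcn, decorin, went the other way, with 8.42 and 7.61. Both arrays were above the other 6 in 2 of the 8. They were above in 1 of 9 smooth muscle and 1 of 7 endothelium markers, with median differences of 0.11 and 0.06. The basal epithelium markers were divided: 5 of 9 were higher on DMSO 5, with a median difference of 0.06, beside -0.01 over all genes. Krt5 and Krt14, keratins of basal cells, gave 8.72 and 9.95 on Dasatinib 1 and 10.34 and 11.41 on DMSO 5. Krt15 and Krt17, on the same list, went the other way, with 9.82 and 10.14 on Dasatinib 1 and 9.33 and 9.80 on DMSO 5. The summed signals of the simple epithelium markers, on the log2 scale, were 15.47 on Dasatinib 1, 15.41 on DMSO 5 and 10.61 to 13.15 on the others, those of the basal markers 11.88, 12.53 and 9.04 to 10.51, and those of the fibroblast markers 10.52, 11.29 and 8.29 to 10.49. The part of these cell types in the Svs signal was not tested. In RNA from bulk cells, fewer cells of a type and less RNA per cell cannot be told apart.

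Granulocyte transcripts, the label of the sample, were found on every array but not at 1 level. S100a8 and S100a9, the subunits of calprotectin, lay at 13.53 to 13.85 and at 13.69 to 14.12, whereas Mpo, the myeloperoxidase of primary granules, lay at 4.32 to 4.88, near the middle of the arrays. Of 15 measured granulocyte markers 0 had both Dasatinib 1 and DMSO 5 above the other 6, and 9 had both below, against 27.6% of all genes. Among the 9 were Csf3r, the G-CSF receptor, with 11.62 on Dasatinib 1, 11.64 on DMSO 5 and 12.40 to 12.60 elsewhere, and Itgam, the CD11b used in the sort, with 9.37, 9.38 and 10.14 to 10.90. Mmp8, the neutrophil collagenase, was also among the 9 and was lowest on Dasatinib 1, with 7.48, 9.08 and 9.34 to 9.70. Cd177 and Ngp, which were not among the 9, were lowest on Dasatinib 1 too. Cd177, a neutrophil surface protein, was 4.60, 6.26 and 6.11 to 7.33. Ngp, a granule protein of immature neutrophils, was 6.70 on Dasatinib 1, 8.94 on DMSO 5 and 8.82 to 10.45 elsewhere. Of 8 measured T and B cell markers 0, and of 9 of monocytes and macrophages 4, had both arrays above. The difference between the 3′ and 5′ probe sets of Gapdh, a sign of RNA quality, was -0.193 on Dasatinib 1 and -0.084 on DMSO 5, and -0.115 to -0.038 on the other arrays, and that of Actb was 0.057, 0.049 and 0.026 to 0.153.

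**Figure D3:**
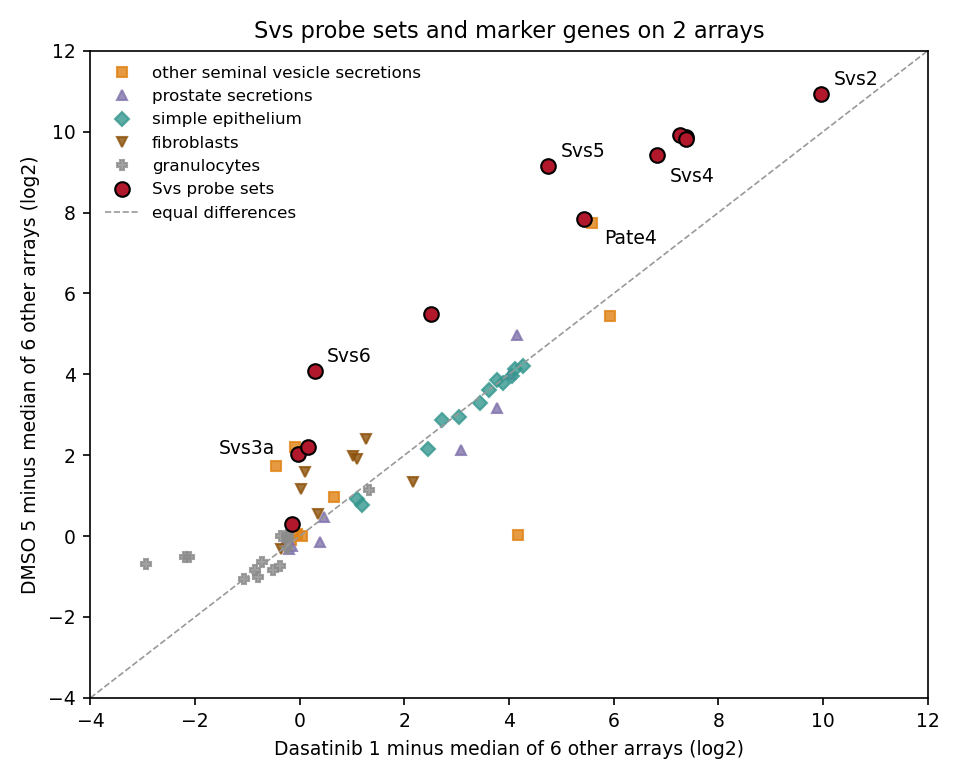
Log2 signal on Dasatinib 1 (horizontal axis) and on DMSO 5 (vertical axis), each minus the median of the 6 other arrays, for the 12 Svs probe sets and for genes of 5 marker lists, 1 point per probe set or gene. The dashed line marks equal differences, and all 12 Svs points lie above it, by 0.46 to 4.41, whereas simple epithelium markers lie along it.

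The treatments were compared last, because the study asked what Dactolisib and Dasatinib each change in Gr-MDSCs. Dactolisib and Dasatinib were each set against DMSO and against one another by limma over all 45037 probe sets, with adjustment by Benjamini and Hochberg and a threshold of 0.05. Whether samples of 1 group came from separate animals or cultures is not given in the sources used here, so a p-value reflects no more than the variation among these samples, and that may be technical. The 12 Svs probe sets gave 0 calls in each of the 3 comparisons, against 0% of all probe sets, and the unpaired test named in the methods also gave 0 calls in each. At unadjusted p below 0.05 limma had 1 of 12 for Dactolisib against DMSO (5.8% of all), 0 of 12 for Dasatinib against DMSO (0.602%) and 1 of 12 for Dactolisib against Dasatinib (3.58%). Both that passed were the same probe set, the shared Svs3a and Svs3b 1436782_at, which was higher in Dactolisib samples. In the unpaired test these counts were 0 of 12 (5.8%), 0 of 12 (1.56%) and 2 of 12 (2.87%), and with the array set as a block, explained below, 2 of 12 (17.3%), 10 of 12 (4.9%) and 3 of 12 (11.1%). Both comparisons with DMSO share the DMSO arrays.

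With Dactolisib, Svs2 averaged 2.09 ± 0.10 (SD, n = 2), against 4.90 ± 5.46 with DMSO (SD, n = 4), and its difference of -2.81 ± 3.27 (SE) had a limma adjusted p of 0.838. Svs4 averaged 2.46 ± 0.04 with Dactolisib and 4.88 ± 4.66 with DMSO, and Svs5 4.01 ± 0.04 and 6.20 ± 4.61, with differences of -2.42 ± 2.79 and -2.19 ± 2.76. Svs6 and Svs3a differed by -0.85 ± 1.26 and -0.21 ± 0.66. The groups overlapped for Svs2, Svs3a, Svs4, Svs5 and Svs6, and the median over the 12 probe sets was -2.08, beside 0.03 over all. Those negative values rest on DMSO 5: without that array the differences were -0.08, -0.09, 0.11, 0.20 and 0.33 for Svs2, Svs4, Svs5, Svs6 and Svs3a. The shared probe set 1436782_at was 0.43 ± 0.17 higher in the Dactolisib samples (adjusted p = 0.824 in limma), and it passed, at 0.53 ± 0.10 (adjusted p = 0.0396), with the array set as a block. Array sets are the 3 clusters the arrays form without the Svs probe sets, and they cross the treatments only in part. The first holds Dactolisib 1, DMSO 2 and DMSO 4, the next Dactolisib 2, Dasatinib 2 and DMSO 3, and the last Dasatinib 1 and DMSO 5. In this comparison DMSO 5 was alone in its set, so with the block it did not bear on the difference. With array sets as a block 2.74% of all probe sets passed. Both values on the Dactolisib arrays, 4.44 and 4.43, were above those of all 4 DMSO arrays, 3.75 to 4.34, and all of them lay below the array medians of 4.82 to 4.87. The share of all probe sets that separate in this way was not counted, so nothing is read from it.

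With Dasatinib, the 2 samples of the group lay far apart for Svs2, Svs4 and Svs5, Dasatinib 1 high and Dasatinib 2 among the low arrays. Svs2 averaged 7.21 ± 6.95 with Dasatinib (SD, n = 2) and 4.90 ± 5.46 with DMSO (n = 4), a difference of 2.31 ± 4.10 (SE; limma adjusted p = 0.999984). Svs4 differed by 0.87 ± 3.31, Svs5 by 0.11 ± 3.03, Svs6 by -0.72 ± 1.28 and Svs3a by -0.43 ± 0.66, and the median over the 12 probe sets was 0.43, beside -0.01 over all. Without Dasatinib 1 and DMSO 5 the differences were 0.13, -0.31, 0.02, 0.25 and 0.11 in that order. With the array set as a block, where Dasatinib 1 is read against DMSO 5 and Dasatinib 2 against DMSO 3, all 12 differences were negative, 10 of 12 at unadjusted p below 0.05 (4.9% of all), and 0 passed the adjusted threshold in limma (adjusted p 0.882 to 0.903). As this block sets Dasatinib 1 beside DMSO 5, the arrays whose Svs2 and Svs5 signals chose the family, nothing is read from that count.

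Dactolisib set against Dasatinib directly gave Svs2 a difference of -5.12 ± 4.36 (SE; limma adjusted p = 0.883), with means of 2.09 ± 0.10 and 7.21 ± 6.95 (SD, n = 2 each). Svs4 differed by -3.29 ± 3.52, Svs5 by -2.30 ± 3.22, Svs6 by -0.13 ± 1.36 and Svs3a by 0.22 ± 0.71. The median over the 12 probe sets was -2.51, beside 0.05 over all. Without Dasatinib 1 and DMSO 5 the values were -0.21, 0.22, 0.09, -0.05 and 0.22 for Svs2, Svs4, Svs5, Svs6 and Svs3a. For Svs2, Svs4 and Svs5 the SD within the Dasatinib and DMSO groups was larger than any of these differences between treatments, while that of the 2 Dactolisib samples was at most 0.10.

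**Figure D4:**
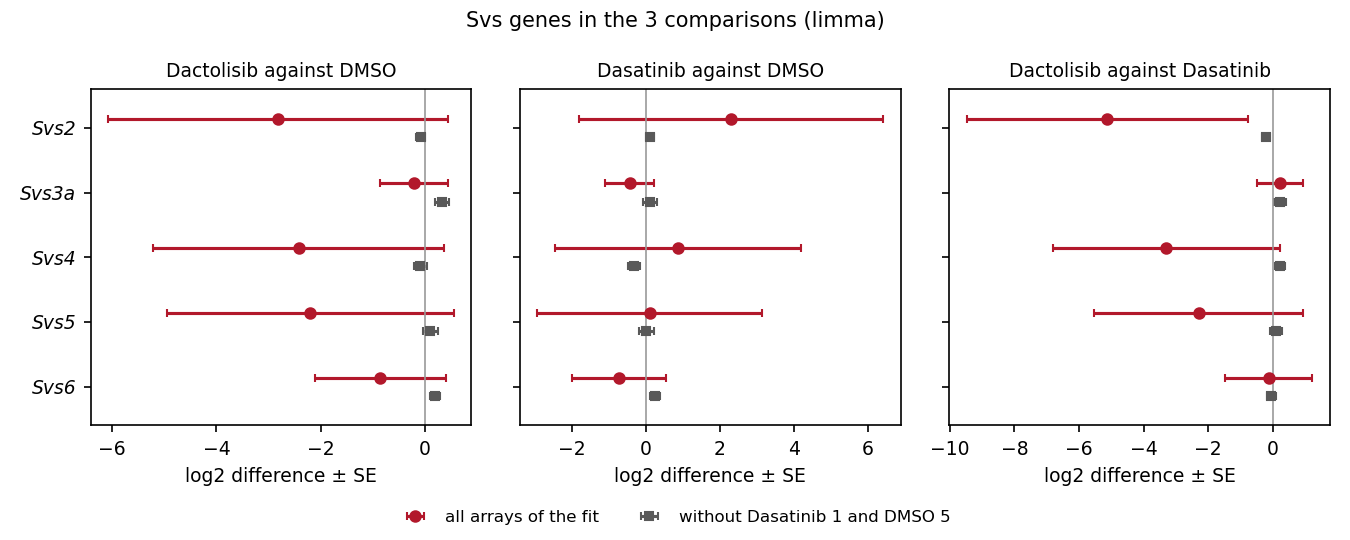
Log2 difference with its standard error (horizontal axis) for each of the 5 measured genes (vertical axis) in the 3 comparisons, from limma with all arrays of the fit (circles) and without Dasatinib 1 and DMSO 5 (squares). Differences of Svs2 run from -5.12 to 2.31 with all arrays and from -0.21 to 0.13 without the 2.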

How the data were processed

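RNA of 8 samples was hybridized to Affymetrix mouse arrays. What the authors deposited is a table with the log2 signals of 45101 probe sets, 64 of them controls. MAS5 is named in the submitters' processing notes and oligo in the paper, so the summary method is not settled, and low log2 signals depend on it. The sources also differ on the RNA extraction. Treatments were taken from the titles, because the treatment field of both Dasatinib samples reads Dactolisib. Genes came from GEO's platform annotation, with 34945 probe sets of 1 gene, 932 of several and 9160 of none.

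Members and lists were chosen with earlier results of these data known. limma 3.58.1 (R 4.3.3) was fitted to the arrays of both groups for each drug against DMSO, and to all 8 for Dactolisib against Dasatinib, without a filter, so that each member has a row; in the 15 lists, 1 probe set of its own, that of the highest mean signal, stood for a gene. In the upper 66.7% by mean signal are 9 of 12 member probe sets, and 1 would be there on the 6 low arrays alone. Named genes were all members, up to 5 with the highest Pearson correlation per member, those with the largest excess on both high arrays, a few of each list with the widest range, its first genes, and the nearest neighbors. The calculation was tested on simulated data. Alternatives were the filter, quantile normalization, 32 added before log2, a trended and robust prior, the unpaired t-test of the methods, array set and replicate number as blocks, other samples in the fit, and arrays left out. The number of arrays limits the precision. Promoters came from RefSeq (GRCm38.p6), the first window of each gene, and were aligned with Biopython 1.88.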

Additional observations from a re-analysis of the deposited data

Results flagged for a closer look

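In the 4 DMSO samples, 68 probe sets were examined for 1 sample far from the other 3, by the gap to the nearest sample divided by the whole range, which was set against Dixon's critical value. Of these 26 passed, among them 11 of 12 Svs probe sets. Chance passes about 1 in 20, but the Svs genes were chosen for their high signal on DMSO 5, so their passing restates that choice and is set against no rate. In all but Csf3r and Col3a1 the sample far from the others was DMSO 5, as the highest. The ratios were 0.995 and 0.947 for the probe sets of Svs2, 0.839 for Svs3a, 0.895 for the shared Svs3a and Svs3b probe set 1417992_a_at, 0.966 for Svs4, 0.963, 0.995, 0.954, 0.974 and 0.954 for Svs5, and 0.956 for Svs6. The shared probe set 1436782_at did not pass.

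Genes picked because their signals follow those of the Svs genes passed for the same reason, and are listed for their values only. They are Pate4 (0.976), 9530002B09Rik (0.938), Spink1 (0.937), Defb42 (0.944), Cyp4a12a (0.913), Ces1d (0.964), Tac1 (0.905), the precursor of substance P, Sox9 (0.853), a transcription factor, and Tnfrsf11b (0.893), the decoy receptor osteoprotegerin. From the lists and the neighbors Wfdc15b (0.893), Sval1 (0.923), Apof (0.975), an apolipoprotein on the prostate list, and Azgp1 (0.898) passed. Csf3r had DMSO 5 as the lowest sample (0.851). For Col3a1, a fibrillar collagen on the fibroblast list, it was DMSO 3 that stood apart, as the lowest (0.838). Genes of the lists were named with earlier results of these data known, a few of each for their wide range over the same arrays. Nothing is therefore read from their passing.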

How the results depend on the processing

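Calls of Svs probe sets stayed at 0 in the 3 comparisons under the alternatives tried, leaving out each array included (0 to 0), except that the array set as a block called 1, the shared Svs3a and Svs3b probe set, for Dactolisib against DMSO. Of 222 values of single genes under the alternatives 190 kept their direction, 32 reversed and 0 passed the threshold, and 3 of 15 results never reversed. Adjusted p in limma and the unpaired test of the methods lay between 0.232 and 1 for these 15 results. Among the other scales and filters 1 value reversed, Svs5 for Dasatinib against DMSO with 32 added before log2 (-0.26).

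With the array set as a block, Dactolisib against DMSO turned to 0.30 for Svs3a, 0.10 for Svs5 and 0.17 for Svs6, Dasatinib against DMSO to -0.41 for Svs2, -1.41 for Svs4 and -2.21 for Svs5, and Dactolisib against Dasatinib to 0.19 for Svs2, 0.999 for Svs4, 1.64 for Svs5 and 1.39 for Svs6. Leaving out DMSO 5 and Dasatinib 1 together, chosen after seeing the data, turned Dactolisib against DMSO to 0.33, 0.11 and 0.20 for Svs3a, Svs5 and Svs6, Dasatinib against DMSO to 0.11, -0.31 and 0.25 for Svs3a, Svs4 and Svs6, and Dactolisib against Dasatinib to 0.22 and 0.092 for Svs4 and Svs5.

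Leaving out 1 array at a time gave, for Dactolisib against DMSO, -3.73 to -0.08 for Svs2, -0.47 to 0.33 for Svs3a, -3.24 to -0.09 for Svs4, -3.04 to 0.11 for Svs5 and -1.23 to 0.20 for Svs6. For Dasatinib against DMSO it gave -2.61 to 7.22, -0.69 to 0.10, -2.65 to 4.39, -2.29 to 2.50 and -1.10 to 0.33 in the same order of genes. For Dactolisib against Dasatinib it gave -10.03 to -0.21, 0.19 to 0.25, -6.81 to 0.22, -4.69 to 0.092 and -0.21 to -0.05. Reversals came from leaving out DMSO 5 (Svs3a, Svs5 and Svs6 for Dactolisib and Svs3a and Svs6 for Dasatinib, against DMSO) or Dasatinib 1 (Svs2, Svs4 and Svs5 against DMSO, Svs4 and Svs5 between the drugs), and for Svs5 under Dasatinib also from leaving out DMSO 2, DMSO 3 or DMSO 4 (-0.74, -0.65 and -0.59).

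Replicate numbers 1 and 2 are shared by the Dactolisib and Dasatinib samples only, and nothing in the labels says that they pair them. With the replicate number as a block (replicate block), limma called 0 probe sets, 0 of them Svs, with 696 higher and 1238 lower at unadjusted p below 0.05, against 820 and 792 without it, and the differences of the members were the same. Deviations of Dactolisib 1 and Dasatinib 1 from their group means correlated at 0.5589 across 30024 probe sets, from a single independent pair of numbers.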

Other observations

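Some genes outside the Svs family had their highest signal on DMSO 5 by a wide margin, as Svs6 and Svs3a did. By the excess of DMSO 5 over the other 7 arrays, Svs probe sets held the first 3 places (Svs5 with 4.41, Svs6 with 3.80 and Svs2 with 2.99), followed by Lgals4, a galectin of epithelia, with 4.60 on Dasatinib 1, 7.55 on DMSO 5 and at most 4.60 elsewhere. Ptn, the growth factor pleiotrophin, gave 3.26 on Dasatinib 1 and 6.09 on DMSO 5, and Gsta3, a glutathione transferase, 3.90 and 6.67, with at most 3.30 elsewhere. Klk1, a kallikrein of glandular tissue, gave 2.54 on Dasatinib 1 and 5.65 on DMSO 5 on 1 probe set, while on the one of its probe sets with the highest mean DMSO 5 was the lowest array, at 5.43. Tff3, a trefoil peptide of mucous epithelia, gave 6.15 on Dasatinib 1 and 8.51 on DMSO 5, and the beta-defensins Defb1 and Defb6 gave 5.78 and 3.66 on Dasatinib 1 and 8.03 and 5.87 on DMSO 5. Defb1 was at most 4.91 on the other 6 arrays, so it was raised on Dasatinib 1 too. These values are descriptions of 2 arrays, with no test.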
